A study of Mus musculus with 4 samples.

Results

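Of the 31053 genes counted in the mouse testis at P14, 9 encode the tight junction and barrier proteins described here: the claudins *Cldn11*, *Cldn3*, *Cldn4*, *Cldn5* and *Cldn7*, the membrane proteins *Ocln* and *F11r*, and the cytoplasmic plaque proteins *Tjp1* and *Cgn*. They were chosen by symbol, and each symbol matched 1 row of every count matrix. The data were single-cell RNA counts from the part of the testis where the rete testis (RT) meets the tubules, in 2 control and 2 *Sox17*-cKO libraries of C57BL/6 mice. The labels give the controls as SF1Cre and the knockouts as SF1Cre:Sox17flox/flox, whereas the methods describe the controls as Sox17 flox/flox animals without Cre, so the allele shared by both groups is not settled here. *SF1* is another name of *Nr5a1*, whose promoter drives Cre in the gonadal somatic lineage and not in the RT alone. Each library was pooled from 3 pups, so the spread between libraries is a spread between pools, and much of the interstitium was discarded during digestion.

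Claudins are small membrane proteins that pair across the space between adjoining cells and set which ions pass, and occludin (*Ocln*) and JAM-A (*F11r*) lie in the same strands or beside them. ZO-1 (*Tjp1*) and cingulin (*Cgn*) bind their tails inside the cell and tie them to actin. In the testis the tight junctions between Sertoli cells form the blood-testis barrier in the weeks after birth, and claudin-11 is its main claudin: male mice without it are sterile. The RT is a simple epithelium that collects sperm from the seminiferous tubules (ST), and the Sertoli valve (SV) is the stretch of modified Sertoli cells at each tubule's end, facing the RT.

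The genes lie on 7 chromosomes of GRCm38. *Cldn11* (ENSMUSG00000037625) lies at chr3:31149920-31164324 on the plus strand, with 3 exons, and *Cgn* (ENSMUSG00000068876) on the same chromosome at chr3:94760069-94786492, minus strand. *Cldn3* (ENSMUSG00000070473, chr5:134986214-134987472, plus strand) and *Cldn4* (ENSMUSG00000047501, chr5:134945119-134946934, minus strand) are neighbours of 1 exon each, 39279 bases apart. *Cldn5* (ENSMUSG00000041378, chr16:18776847-18778262, plus strand) also has 1 exon. The others are *Cldn7* (ENSMUSG00000018569, chr11:69964779-69967885, plus), *Ocln* (ENSMUSG00000021638, chr13:100496507-100552718, minus), *Tjp1* (ENSMUSG00000030516, chr7:65296165-65527781, minus) and *F11r* (ENSMUSG00000038235, chr1:171437535-171464603, plus). *Cldn3* shares 40 exonic bases with *Wbscr25*, an antisense gene on the opposite strand, whereas the 3 entries annotated within *Tjp1* share no exonic base with it.

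Promoter windows are shown for 4 claudins with unlike patterns over the cell classes: *Cldn11*, high in Sertoli, RT and fibroblast classes, *Cldn3*, high in the RT, *Cldn4*, highest in the SV and at 0 in the tubule, and *Cldn5*, high in endothelium. Each runs from 250 bases before the RefSeq start to 50 after it on GRCm38.p6, 5′ to 3′ on the strand of the gene: chr3:31149670-31149969 (plus) for *Cldn11*, chr5:134985964-134986263 (plus) for *Cldn3*, chr5:134946885-134947184 (minus) for *Cldn4* and chr16:18776597-18776896 (plus) for *Cldn5*. Capitals mark matches on either strand to GGGCGG (a GC box, reverse CCGCCC) or CACCTG (an E-box, reverse CAGGTG).
Cldn11: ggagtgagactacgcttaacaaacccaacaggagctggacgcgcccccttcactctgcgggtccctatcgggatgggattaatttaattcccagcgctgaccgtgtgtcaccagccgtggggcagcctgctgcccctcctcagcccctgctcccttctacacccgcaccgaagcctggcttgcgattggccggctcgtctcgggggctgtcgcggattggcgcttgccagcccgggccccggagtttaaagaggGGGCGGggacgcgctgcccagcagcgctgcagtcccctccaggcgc
Cldn3: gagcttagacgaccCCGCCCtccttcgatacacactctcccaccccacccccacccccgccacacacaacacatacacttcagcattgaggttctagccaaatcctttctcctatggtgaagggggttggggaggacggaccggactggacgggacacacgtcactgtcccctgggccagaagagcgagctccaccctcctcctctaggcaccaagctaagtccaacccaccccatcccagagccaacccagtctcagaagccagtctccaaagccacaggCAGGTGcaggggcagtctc
Cldn4: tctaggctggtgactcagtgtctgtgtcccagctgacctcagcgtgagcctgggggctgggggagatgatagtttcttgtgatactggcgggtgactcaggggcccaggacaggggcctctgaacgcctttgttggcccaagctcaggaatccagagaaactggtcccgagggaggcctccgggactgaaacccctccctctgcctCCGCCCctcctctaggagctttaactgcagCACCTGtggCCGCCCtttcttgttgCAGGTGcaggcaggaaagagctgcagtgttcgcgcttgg
Cldn5: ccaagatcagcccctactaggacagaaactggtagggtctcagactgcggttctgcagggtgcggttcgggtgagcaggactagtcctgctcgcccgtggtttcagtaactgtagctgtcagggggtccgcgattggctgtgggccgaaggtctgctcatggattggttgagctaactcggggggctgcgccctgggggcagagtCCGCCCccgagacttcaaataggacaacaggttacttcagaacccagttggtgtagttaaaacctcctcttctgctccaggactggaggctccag
All 9 genes matched the RefSeq table, in 11 windows of 300 bases. GGGCGG was found once in *Cldn11*, *Cldn3* and *Cldn5* and 2 times in *Cldn4*, and 35.7% of all 32851 windows of that length hold it. CACCTG was found once in *Cldn3*, 2 times in *Cldn4* and not in *Cldn11* or *Cldn5*, against 20.2% of all windows. The other motifs searched, AACAAT (the core of SOX sites, reverse ATTGTT) and AAGGTCA (an NR5A1-type site, reverse TGACCTT), were in none of the 11 windows and in 10.7% and 4.72% of all windows. A match of letters is no evidence of binding, and its absence says only that these letters are not in this window.

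After cells with 1000 to 4500 detected features were kept, 22567 of 46001 barcodes remained, with 33649565 to 42011650 UMIs in each library. Pairs of libraries shared 20 to 43 barcodes, at most 0.391% of the smaller library. Clusters were named from marker lists that hold none of the 9 genes, and the 9 genes and 75 other barrier genes were left out of the features used for clustering. This gave 14 named classes, among them 227 RT-like, 229 SV Sertoli-like, 5970 tubule Sertoli-like and 71 endothelial-like cells. In RT-like cells the RT markers summed to 545 to 941 counts per 1000000 UMIs of the class (CPM), against 71.7 to 143 in SV Sertoli-like and 17.0 to 35.1 in tubule Sertoli-like cells. They were above the SV in differentiating spermatogonia-like (231 to 331 CPM), early meiotic-like (178 to 276 CPM) and pachytene-like cells (151 to 206 CPM). Sertoli markers summed to 2749 to 3848 CPM in RT-like, 13510 to 17660 in SV Sertoli-like and 19370 to 21890 in tubule Sertoli-like cells. The SV list was higher in SV Sertoli-like (691 to 1049 CPM) than in tubule Sertoli-like cells (63.9 to 88.0 CPM), but higher still in RT-like (1398 to 2843 CPM), pericyte-like (1183 to 1547 CPM) and, on average, endothelial-like cells (1010 to 1193 CPM), so it separates the 2 Sertoli classes and does not set the SV apart from other classes. A level below is a CPM value of a class in 1 library, and 4 values in a row are control 1, control 2, *Sox17*-cKO 1 and *Sox17*-cKO 2. Since UMIs count 3′ ends and depend on the gene, levels are compared between classes and not between genes.

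**Figure D1:**
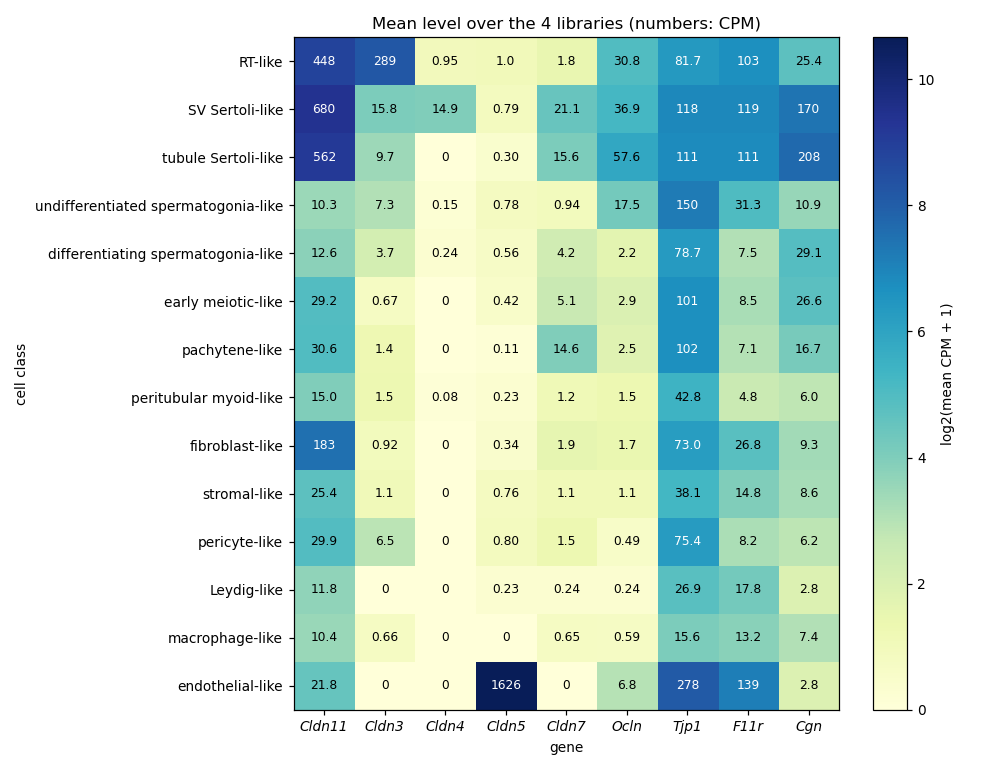
Mean level of each gene (columns) in each of the 14 cell classes (rows) over the 4 libraries; the number in a cell is the mean in CPM and the colour is log2 of that mean plus 1. *Ocln* and *Cgn* are highest in the tubule Sertoli-like row, *Cldn3* in the RT-like row and *Cldn5* in the endothelial-like row. *Cldn11* is high in Sertoli-like, RT-like and fibroblast-like rows and *F11r* in Sertoli-like, RT-like and endothelial-like rows, while *Tjp1* is above 15 CPM in every row.

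*Cldn11*, the claudin of the Sertoli barrier, was high in the 3 epithelial classes and in fibroblasts, and low elsewhere. It averaged 680.4 ± 138 CPM (SD, n = 4 libraries) in SV Sertoli-like, 562 ± 161 in tubule Sertoli-like, 448 ± 185 in RT-like and 183 ± 60.3 in fibroblast-like cells. In SV Sertoli-like cells the 4 libraries held 525, 805, 604 and 788 CPM. Tubule Sertoli-like cells held 441, 675, 406 and 724 CPM, below the SV value of the same library in all 4. Within that class, cluster 1 (503, 846, 542 and 838 CPM) lay above the SV in control 2 and *Sox17*-cKO 2. RT-like cells held 223, 422, 472 and 673.5 CPM, lowest in control 1 and highest in *Sox17*-cKO 2. The ranges of these 3 classes overlapped, as did those of RT-like and fibroblast-like cells (105 to 239 CPM), whereas fibroblasts lay above the next class, pachytene-like cells at 30.6 CPM. The other 10 classes averaged 10.3 to 30.6 CPM.

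*Cldn3*, which enters newly built Sertoli junctions in mice, was an RT transcript in these data. Its level in RT-like cells was 480.3, 199, 306 and 171 CPM, a mean of 289 ± 140 CPM that was 18.3 times that of the next class. SV Sertoli-like cells, which came next, held 37.1, 0, 22.2 and 3.70 CPM, and tubule Sertoli-like cells 9.85, 5.88, 20.8 and 2.38 CPM. The lowest RT library was thus above the highest SV library, and from the SV downward the ranges of neighbouring classes overlapped. Undifferentiated spermatogonia-like cells had 7.26 CPM, and Leydig-like and endothelial-like cells had 0 UMIs.

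*Cldn4*, a claudin of many lining epithelia, was rare, and its highest level was in the SV. SV Sertoli-like cells held 6, 7, 6 and 2 UMIs of *Cldn4*, or 13.9, 22.8, 19.1 and 3.70 CPM. In control 2, the highest library, 6 of the 7 UMIs came from 1 cell. Tubule Sertoli-like cells held none in 34126547 UMIs, so the pooled level in the SV was at least 150-fold higher when 3 counts over the class were taken as the floor. RT-like cells held 1 UMI, in control 1 (3.78 CPM), so the lowest SV library did not lie above the RT range. That UMI makes the SV level 23.0 times theirs with a 95% counting interval of 3.70 to 952. All named classes other than the SV, the RT and tubule classes included, held 11 UMIs in 20651 cells, 6 of them in differentiating spermatogonia-like cells. The transcript was in 11 of 229 SV cells (4.80%, exact binomial interval 2.42 to 8.43), in every library, with at most 3 UMIs in a cell outside control 2. Of these 11 cells, 6 also held *Cldn11*, 6 held *Cldn7*, 6 held *Cgn* and 2 held *Cldn3*, where 191, 29, 123 and 11 of all 229 SV cells held these genes. In the tubule class *Cldn4* was in 0 of 5970 cells, which allows a share of up to 0.0503% when 3 counts are taken as the limit. That limits the cells with a UMI, at a median of 4320 UMIs per cell, and not the cells that express the gene. These intervals and limits cover counting error only.

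*Cldn5*, the claudin of blood vessel walls, was confined to endothelium apart from traces. Endothelial-like cells held 2446, 1954, 944 and 1162 CPM, a mean of 1626 ± 698 CPM, and every other class averaged at most 1.03 CPM. It was in 60 of the 71 cells (84.5%, exact interval 74.0 to 92.0), with a median of 12, 9, 4 and 4 UMIs per cell. In RT-like cells 1 UMI was counted in all, although the summed endothelial list stood at 282 to 503 CPM there, and SV and tubule Sertoli-like cells held 1 and 9 UMIs.

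*Cldn7*, another epithelial claudin, was low but present in Sertoli cells and in the later germ cells. SV Sertoli-like cells held 16.3, 13.0, 34.9 and 20.4 CPM and tubule Sertoli-like cells 20.5, 13.5, 13.3 and 15.0 CPM, with overlapping ranges. RT-like cells held 3 UMIs in all, and the pooled level of tubule Sertoli-like cells was 9.41 times theirs (counting interval 3.20 to 45.8). Among germ cells, pachytene-like cells held 17.5, 14, 16.5 and 10.6 CPM. Early meiotic-like cells (4.36 to 6.35 CPM) did not reach that range, and the pooled ratio of the 2 classes was 3.17 (counting interval 2.33 to 4.32). The cluster called pachytene-like scored 3.07 on the early meiotic marker list and 2.73 on the pachytene list, and the rule that named it was set after the data were seen.

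*Ocln* was highest in tubule Sertoli-like cells, at 61.1, 58.3, 43.6 and 67.3 CPM, a mean of 57.6 ± 10.1 CPM. This range lay just above that of SV Sertoli-like cells, which held 27.9, 42.4, 34.9 and 42.6 CPM. RT-like cells held 41.6, 32.9, 12.4 and 36.2 CPM, overlapping the SV, and the low value is that of *Sox17*-cKO 1 with 3 UMIs. Undifferentiated spermatogonia-like cells followed with 17.5 ± 8.47 CPM, and the other 10 classes averaged at most 6.80 CPM.

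*F11r* was nearly level over the epithelial classes and endothelium. It averaged 139 CPM in endothelial-like, 119 in SV Sertoli-like, 111 in tubule Sertoli-like and 103 in RT-like cells, with overlapping ranges. RT-like cells held 147.5, 91.8, 91.0 and 83.1 CPM, all above undifferentiated spermatogonia-like cells, the next class, whose highest library had 49.7 CPM.

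*Tjp1*, which other junctions use too, was the most widespread of the 9. Endothelial-like cells averaged 278 ± 124 CPM, undifferentiated spermatogonia-like cells 150.3 ± 40.8, SV Sertoli-like cells 118 ± 49.6, tubule Sertoli-like cells 111 ± 19.5 and RT-like cells 81.7 ± 17.7 CPM. The first 10 classes in this order overlapped each with the next, down to fibroblast-like cells at 73.0 CPM. Macrophage-like cells were lowest, at 15.6 ± 4.72 CPM.

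*Cgn* was highest in the 2 Sertoli classes and low in the RT. Tubule Sertoli-like cells held 193, 188, 237 and 215 CPM, and SV Sertoli-like cells 142, 160, 197 and 181 CPM. RT-like cells held 26.5, 15.6, 41.4 and 18.1 CPM, and so did not come near either Sertoli range. Differentiating spermatogonia-like and early meiotic-like cells, at 29.1 and 26.6 CPM, were as high as the RT within the spread of the libraries.

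**Figure D2:**
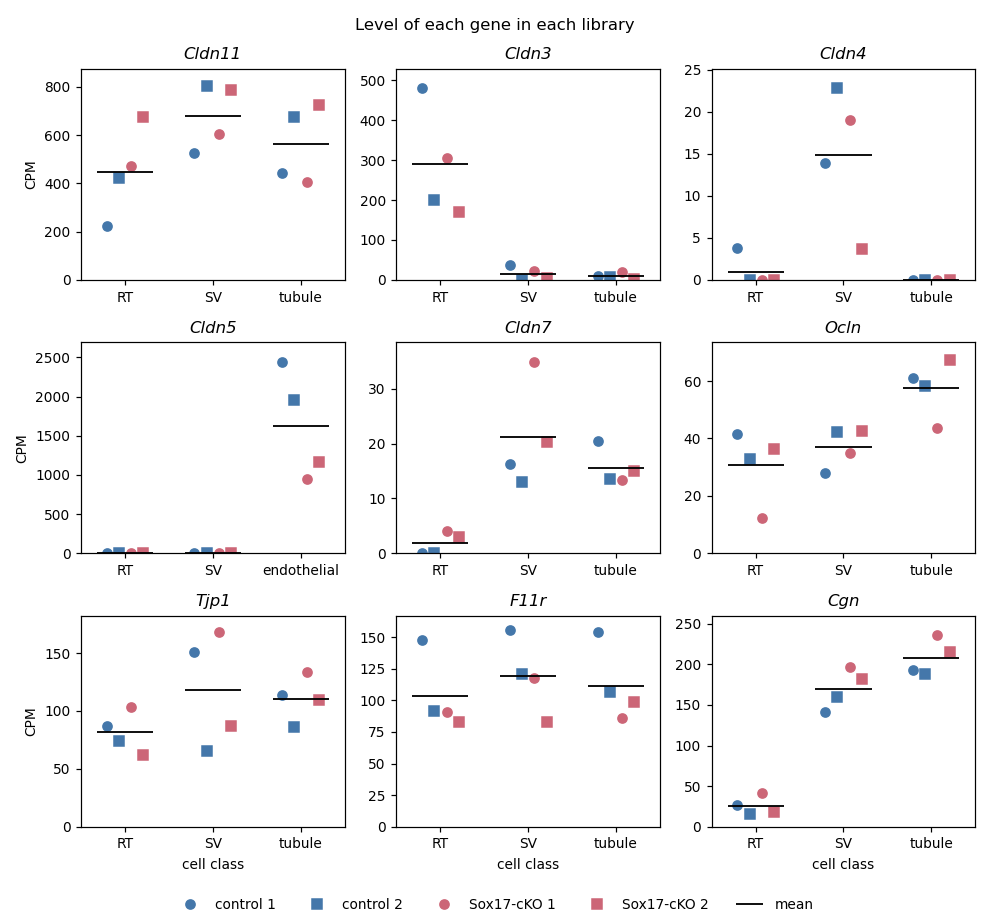
Level (CPM, linear axis from 0) of each gene in each library in RT-like, SV Sertoli-like and tubule Sertoli-like cells, with endothelial-like cells in place of the tubule for *Cldn5*; the bar is the mean of 4 libraries. *Cldn3* and *Cgn* separate the RT from both Sertoli classes in all 4 libraries, and *Cldn4* is at 3.70 CPM or more in every SV library and at 0 in every tubule library.

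Whether the RT differed from the Sertoli cells of the tubule beyond the spread of the libraries was tested on UMIs summed per library and class, with the library as a block. Of the 6 members with enough counts, 4 passed an adjusted p of 0.05 (quasi-likelihood test of edgeR, p adjusted by Benjamini-Hochberg over all genes tested), 1 higher and 3 lower in RT-like cells. In this comparison 58.8% of all 7842 genes tested passed, so the count itself is no mark of these genes. *Cldn3* was higher by 5.08 on the log2 scale (SE 0.257, adjusted p = 1.7e-14) and *Cgn* lower by a log2 value of -3.23 (SE 0.191, adjusted p = 3.2e-13), each in 4 of 4 libraries. *Ocln* followed at -0.90 (SE 0.207, adjusted p = 0.000616), lower in 4 of 4 libraries. Cluster 2 of the tubule class (15.1 to 37.6 CPM, mean 26.4) overlapped the RT-like cells (12.4 to 41.6 CPM, mean 30.8), whereas cluster 1 held 64.0 to 79.2 CPM. *Tjp1* was at -0.45 (SE 0.159, adjusted p = 0.0178), lower in 4 of 4, but the call was lost with cells under 10% mitochondrial UMIs (-0.31, adjusted p = 0.145) and without *Sox17*-cKO 2 (-0.31, adjusted p = 0.181). *Cldn11* at -0.35 (SE 0.153, adjusted p = 0.0519) and *F11r* at -0.14 (SE 0.14, adjusted p = 0.417) did not pass. *Cldn11* was lower in the RT in both controls (223 against 441 and 422 against 675 CPM) and in *Sox17*-cKO 2 (673.5 against 724 CPM), and higher in *Sox17*-cKO 1 (472 against 406 CPM), so the wider gaps were those of the controls. *F11r* passed when low counts were not filtered out (-0.48, adjusted p = 0.0108), a setting that moved the median of all genes by -0.342, and turned to 0.052 with cells under 10% mitochondrial UMIs. *Cldn11* did pass without *Sox17*-cKO 1 (-0.54) or *Sox17*-cKO 2 (-0.48), at resolution 0.8 (-0.43), without integration (-0.54) and with no filter on low counts (-0.69). *Cldn4*, *Cldn5* and *Cldn7* did not pass the filter on low counts, which asks for a level reached in 4 of the 12 sums. *Cldn3* passed it only through its RT-like sums and so had to differ if tested. Unfiltered, its fold was 4.75.

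Between the SV and the tubule, the 2 Sertoli classes, 1 member of the same 6 passed, against 31.1% of all genes tested. That gene was *Ocln*, lower in SV Sertoli-like cells by a log2 value of -0.66 (SE 0.203, adjusted p = 0.0149) and in 4 of 4 libraries. The tubule class was not uniform in it: cluster 1 of the class held 64.0 to 79.2 CPM, whereas cluster 2 (15.1 to 37.6 CPM, mean 26.4) averaged below the SV mean of 36.9 CPM and cluster 10 (22.9 to 50.5 CPM) overlapped the SV. The call was lost with cells under 10% mitochondrial UMIs (-0.36, adjusted p = 0.335), without control 1 (-0.50, adjusted p = 0.120) and without *Sox17*-cKO 2 (-0.67, adjusted p = 0.0735). Tubule Sertoli-like cells carried the larger mitochondrial share, with medians of 6.91 to 13.1% in the 4 libraries against 4.98 to 7.23% in the SV, and its part in the result was not tested further. *Cldn11* was at 0.30 (SE 0.147, adjusted p = 0.137), higher in 4 of 4 libraries, and passed once cells over 10% mitochondrial UMIs were left out (0.44, adjusted p = 0.0371). Cluster 1 of the tubule class held 503, 846, 542 and 838 CPM of it, above the SV in control 2 and *Sox17*-cKO 2. Cluster 2 held 243 to 445 CPM. The 10% limit kept 2415 of 5970 tubule cells, where cluster 1 had a median of 12.5% and cluster 2 of 8.13%. The part of the clusters in this call was not tested. *Cgn* was at -0.29 (SE 0.127, adjusted p = 0.0896), passed when low counts were not filtered out (-0.42, adjusted p = 0.0295) and was at 0.0012 with cells under 10% mitochondrial UMIs (adjusted p = 0.998). *Cldn3* was at 0.81 with an SE of 0.511. For *Tjp1* and *F11r* the differences were 0.07 and 0.08, with SEs of 0.148 and 0.137.

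RT-like against SV Sertoli-like cells gave 4 calls among the 6 members, against 43.6% of all genes tested. *Cldn3* was higher by 4.27 (SE 0.373, adjusted p = 1.4e-09) and *Cgn* lower at -2.94 (SE 0.217, adjusted p = 7.6e-11). *Cldn11* was lower in the RT at -0.65 (SE 0.161, adjusted p = 0.00199). All 3 held in 4 of 4 libraries and kept their calls under every alternative that formed both classes. In the controls *Cldn11* was at 223 against 525 and 422 against 805 CPM, RT against SV. In *Sox17*-cKO it was at 472 against 604 and 673.5 against 788 CPM, so the wider gaps were those of the controls. Whether the genotypes differ in this gap was not tested. Here too *Cldn3* passed the filter on low counts only through its RT-like sums, so its call was set by the filter and is no support. *Tjp1* was at -0.52 (SE 0.190, adjusted p = 0.0302), lower in 3 of 4 libraries, and lost its call under DESeq2 (-0.51, adjusted p = 0.0558), with cells under 10% mitochondrial UMIs (-0.43), and without control 1 (-0.44), *Sox17*-cKO 1 (-0.46) or *Sox17*-cKO 2 (-0.50). *Ocln* at -0.24 and *F11r* at -0.22 did not pass.

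**Figure D3:**
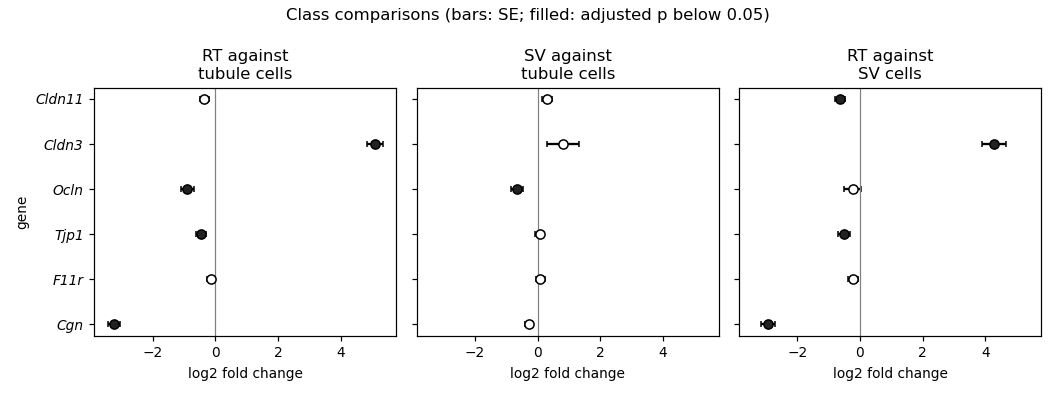
Log2 fold change of the 6 members that could be tested, for RT-like against tubule Sertoli-like, SV Sertoli-like against tubule Sertoli-like and RT-like against SV Sertoli-like cells; bars are 1 SE and filled points passed an adjusted p of 0.05. *Cldn3* lies at 5.08 and 4.27 and *Cgn* at -3.23 and -2.94 in the comparisons with the RT, while the SV and tubule panel has 1 filled point, *Ocln*.

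A further 75 barrier genes were followed in 4 lists: 18 other claudins, 16 membrane proteins of tight junctions and nectin contacts, 25 plaque and polarity proteins, and 16 proteins of the adhesion and actin apparatus of the Sertoli barrier. Of these, 8 membrane, 18 plaque and 14 adhesion genes and none of the other claudins passed the filter on low counts. Genes such as *Mpdz*, *Pkp2* and *Magi1* in the RT and *Magi3* in the SV passed it through 1 class alone. A gene that passes through 1 class has to differ, so the p values of such genes are no support for their difference. The counts and medians below describe the tested genes and not the lists. Those named next were chosen after their values were seen. *Cldn9* (18.2 ± 15.0 CPM), *Cldn22* (15.3 ± 4.31) and *Cldn2* (8.67 ± 2.72) had their highest mean in RT-like cells, *Cldn1* (11.5 ± 9.74) in stromal-like cells, and *Cldn12* lay at 5.40 to 15.3 CPM in 13 classes. In RT-like against tubule Sertoli-like cells, 4 of 8 membrane genes tested were higher and 4 lower (median log2 0.86), 10 of 18 plaque genes were higher and 3 lower (median 0.60), and 4 of 14 adhesion genes were higher and 5 lower (median -0.00161), where the median of all genes tested was 0.03 and 31% of them were higher and 27.8% lower. Among those higher were *Ildr2*, an angulin-family protein (145 to 244 CPM in the RT against 24.8 to 41.5 in the tubule, log2 2.45, SE 0.169, adjusted p = 5.6e-12), *Mpdz*, a multi-PDZ scaffold (log2 4.25, SE 0.339, adjusted p = 8.5e-11), and *Pkp2*, a desmosomal plakophilin (39.3 to 49.2 against 2.51 to 2.85 CPM, log2 4.03, SE 0.340, adjusted p = 2.4e-10). Lower in the RT were the gap junction gene *Gja1* (10.6 to 34.0 against 158 to 286.5 CPM, log2 -3.15, SE 0.217, adjusted p = 5.6e-12), the actin regulator *Eps8* (log2 -3.99, SE 0.360, adjusted p = 8.3e-10) and *Jam3*, a relative of *F11r* (log2 -2.64, SE 0.243, adjusted p = 1.2e-09).

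In SV Sertoli-like against tubule Sertoli-like cells, 3 of the 8 membrane genes were higher and 0 lower (median log2 0.73), 7 of 18 plaque genes were higher and 2 lower (median 0.44), and 7 of 14 adhesion genes were higher and 2 lower (median 0.40), beside a median of -0.02 over all genes tested, of which 16.1% were higher and 15% lower. *Ildr2* (155 to 184 against 24.8 to 41.5 CPM, log2 2.32, SE 0.172), the scaffold *Magi3* (42.4 to 73.1 against 9.17 to 20.5 CPM, log2 1.96, SE 0.213) and *Cxadr*, an adhesion protein of the JAM family (47.6 to 118 against 8.50 to 22.8 CPM, log2 2.31, SE 0.259) were higher, with adjusted p of 1.2e-10, 8.8e-08 and 1.5e-07. The call of *Magi3*, which is among the 7 plaque genes counted as higher, was set by the filter and is no support. *Gja1* (31.5 to 65.0 against 158 to 286.5 CPM, log2 -2.26, SE 0.192), the actin bundler *Espn* (log2 -1.18, SE 0.139) and *Magi1* (log2 -1.58, SE 0.442) were lower, with adjusted p of 1.3e-09, 3.3e-07 and 0.00779. RT-like against SV Sertoli-like cells gave 2 higher and 4 lower of the 8 membrane genes (median -0.43), 6 and 4 of the 18 plaque genes (median 0.24) and 3 and 6 of the 14 adhesion genes (median -0.28), beside 22.7% higher, 20.9% lower and a median of 0.04 over all genes tested. Against the SV, RT-like cells were higher in *Magi1* (49.6 to 79.4 against 1.85 to 9.78 CPM, log2 3.33), *Mpdz* (log2 3.62) and *Espn* (log2 1.09), and lower in N-cadherin, *Cdh2* (25.7 to 75.6 against 134 to 222 CPM, log2 -1.95), *Jam3* (log2 -2.39) and the polarity gene *Pard6b* (log2 -2.68). All 6 had an adjusted p of 3.1e-06 or less and held in 4 of 4 libraries, but the calls of *Magi1* and *Mpdz* were set by the filter.

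The UMIs of each member were also set against those of the Sertoli marker list in each class, as a description. The list holds *Sox9*, which the paper gives as a marker common to RT and Sertoli cells. The list UMIs of RT-like cells therefore need not be Sertoli RNA. At the ratio found in tubule Sertoli-like cells, the 5709 Sertoli marker UMIs of RT-like cells would come with 56.9 UMIs of *Cgn*, and 38 were counted. For *Cldn7*, 3 UMIs were counted against 4.42, too few to tell apart from that ratio. For *Cldn11* 863 UMIs were counted against 148, for *Ocln* 57 against 15.8, for *F11r* 169 against 31.6, for *Tjp1* 132 against 30.8 and for *Cldn3* 429 against 2.74. Fibroblast-like cells held 4453 *Cldn11* UMIs against 434. Pooled over the libraries, *Cldn11* in early meiotic-like and pachytene-like cells was below that ratio, at 0.752 and 0.590 of it, and *Ocln* was at 0.714 and 0.353 of it. Single libraries held 1.60 to 5.59 and 1.37 to 4.25 *Cldn11* UMIs per 100 marker UMIs, beside a pooled 2.59 in tubule Sertoli-like cells. The pachytene-like *Ocln* value rests on 12 UMIs. Undifferentiated spermatogonia-like cells held 127 UMIs of *Ocln* against 9.06, 67 of *Cldn3* against 1.57 and 249 of *F11r* against 18.1. *Cgn* in differentiating spermatogonia-like cells was at 850 against 173, and *Cldn7* in pachytene-like cells at 86 against 9.51. Leydig-like cells, where the list summed to 1623 to 3323 CPM, held *Cgn* at 0.172 of the tubule ratio. RNA free in the droplets was not measured and its part in these counts was not tested.

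**Figure D4:**
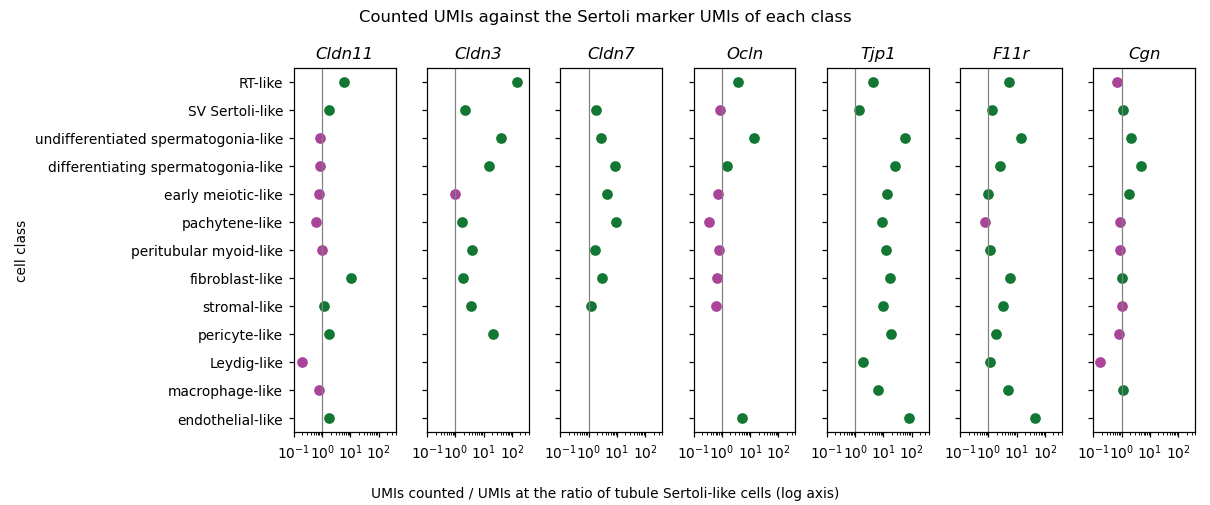
UMIs counted in each class divided by the UMIs at the ratio of gene to Sertoli marker list in tubule Sertoli-like cells (log axis; the line marks 1; green points lie above it and purple points below). *Cgn* in RT-like cells lies below the line at 0.668, while *Cldn3* lies at 157 in RT-like and 42.7 in undifferentiated spermatogonia-like cells; a class with 3 UMIs of a gene or fewer has no point.

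Shares of cells with a UMI are given for *Cldn3*, *Cgn* and *Cldn11*. With each cell thinned to 2000 UMIs, *Cldn3* was detected in 40.2% of RT-like, 2.62% of SV Sertoli-like and 1.63% of tubule Sertoli-like cells, as means of 4 libraries. Unthinned, it was in 157 of 227 RT-like cells (69.2%, exact interval 62.7 to 75.1), at a median of 7747 UMIs per cell. *Cgn* was in 5.58% of thinned RT-like, 25.7% of SV Sertoli-like and 31.0% of tubule Sertoli-like cells. *Cldn11* was in 53.5, 67.0 and 57.2% of these classes and in 27.6% of fibroblast-like cells, but in 2.94% of differentiating spermatogonia-like cells. Unthinned, *Cldn11* was in 82.8% of RT-like and 73.5% of tubule Sertoli-like cells, the reverse of their order in level, at medians of 7747 and 4320 UMIs per cell. *F11r* was in 18.8% of thinned RT-like and 17.0% of tubule Sertoli-like cells, also against the order of its levels. Thinning left out 8 RT-like, 18 SV Sertoli-like and 619 tubule Sertoli-like cells below 2000 UMIs. Within the RT, 139 cells held both *Cldn11* and *Cldn3*, 49 held *Cldn11* alone, 18 *Cldn3* alone and 21 neither, by UMIs in unthinned cells.

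The tubule Sertoli-like class was made of 3 clusters, and the members differed among them as a description. Cluster 1, with 2674 cells and a median of 8414.5 UMIs, had 682 CPM of *Cldn11*, 72.3 of *Ocln*, 135 of *F11r* and 230 of *Cgn*. Cluster 2, with 2474 cells and 2694 UMIs, had 327, 26.4, 61.4 and 121 CPM. Cluster 10 had 822 cells with a median of 29.5% mitochondrial UMIs, and in it *Cgn* stood at 401 CPM while *Cldn11* stood at 322.

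*Sox17*, the transcription factor targeted in this model, was lower in RT-like cells of the knockouts, at 355.5, 312, 45.5 and 34.7 CPM (log2 -3.14, SE 0.336, adjusted p = 0.0153). Endothelial-like cells held 508, 344, 93.3 and 101 CPM of it, with a difference that did not pass (log2 -2.10, SE 0.431, unadjusted p = 0.000374, adjusted p = 0.479). The sources used here do not say whether the counted 3′ ends lie in the deleted part of the gene.

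Whether the loss of *Sox17* changed the members was tested within each class, 2 libraries against 2, and none of the members with enough counts passed (6 in RT-like, 5 in SV Sertoli-like, 7 in tubule Sertoli-like and 3 in endothelial-like cells). Over all genes, 0.133% of 6787 passed in RT-like cells, and 0% passed in SV Sertoli-like, tubule Sertoli-like and endothelial-like cells. Of the 5635, 12345 and 2725 genes tested in those classes, 97, 94 and 89 had an unadjusted p under 0.05 by edgeR. These are fewer than chance alone would give if no gene differed, and DESeq2 called 0, 0 and 1. The endothelial comparison was added after the data were seen. Of the other barrier genes, 0 passed in any of these classes.

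*Cldn11* in RT-like cells was at 223 and 422 CPM in the controls and at 472 and 673.5 CPM in *Sox17*-cKO, a log2 difference of 0.78 (SE 0.357, unadjusted p = 0.0566, adjusted p = 0.893). The groups did not overlap, as held in this direction for 17.7% of the genes tested there. Within the libraries numbered 1 the log2 difference was 1.08 and within those numbered 2 it was 0.673, and these numbers also mark the Cell Ranger version. With the replicate number as a block the fit gave 0.80 with an adjusted p of 0.0147, and 224 genes passed in place of 9. In tubule Sertoli-like cells the difference of *Cldn11* was -0.13 (SE 0.408), and the test of whether the 2 classes differ in it gave 0.94 (SE 0.306, unadjusted p = 0.00214, adjusted p = 0.20), a comparison in which 0.484% of genes passed. SV Sertoli-like cells had a difference of -0.00275 (SE 0.344), and the interaction with the tubule was 0.14 (SE 0.192, adjusted p = 1), with 0.0169% of genes called. Summed fibroblast markers in RT-like cells were 53.0, 253, 37.2 and 125 CPM, higher in the libraries numbered 2, as *Cldn11* was within each genotype. Summed stromal markers, at 163, 149, 261 and 323 CPM, were higher in both *Sox17*-cKO libraries. Summed endothelial markers, at 503, 471, 385 and 282 CPM, were lower in both. The part of these lists in the level of *Cldn11* was not tested.

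*F11r* lay lower in both *Sox17*-cKO libraries than in both controls in each of the 4 classes, without passing the test in any. The log2 difference was -0.47 (SE 0.362) in RT-like, -0.55 (SE 0.338) in SV Sertoli-like, -0.61 (SE 0.272) in tubule Sertoli-like and -0.73 (SE 0.439) in endothelial-like cells, with adjusted p of 0.997 or more. Of all genes tested, 15.4, 10.1, 4.59 and 14.4% lay lower in this way in the 4 classes. These classes come from the same 4 libraries and are not independent of each other. Tubule Sertoli-like cells held 154, 106, 86.4 and 98.8 CPM, highest in control 1. Control 1 was also highest in RT-like, SV Sertoli-like and endothelial-like cells, at 147.5, 155.5 and 184.6 CPM. Control 2 lay close to *Sox17*-cKO 1 in the RT (91.8 against 91.0 CPM) and the SV (120.6 against 117.5 CPM). *Cgn* lay higher in both *Sox17*-cKO libraries in the 2 Sertoli classes, by 0.26 (SE 0.309) in the SV and 0.11 (SE 0.259) in the tubule, as did 16.6 and 16.8% of genes.

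*Cldn5* in endothelial-like cells was lower in *Sox17*-cKO, at 944 and 1162 CPM against 2446 and 1954 CPM, without passing the test. Of all genes tested there, 14.4% lay lower in both *Sox17*-cKO libraries than in both controls. The log2 difference was -1.07 (SE 0.342, unadjusted p = 0.0084) and the adjusted p was 1. Libraries numbered 1 differed by -1.37 and those numbered 2 by -0.75, and the sums rest on 8, 24, 13 and 26 cells. In the same cells *Tjp1* was at -0.64 (SE 0.474). The remaining tested members had log2 differences of -0.57 (*Cldn3*), -0.42 (*Ocln*), -0.06 (*Tjp1*) and 0.39 (*Cgn*) in RT-like cells, with SEs of 0.378 to 0.631. A p that misses the threshold does not show that these genes kept their level.

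**Figure D5:**
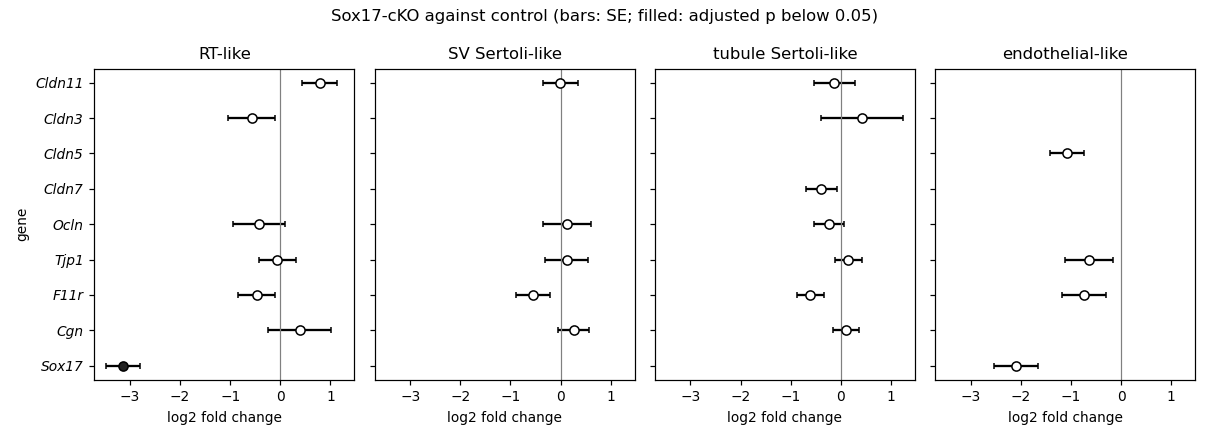
Log2 fold change of each testable member and of *Sox17* in *Sox17*-cKO against control libraries, in RT-like, SV Sertoli-like, tubule Sertoli-like and endothelial-like cells; bars are 1 SE and the filled point passed an adjusted p of 0.05. *Sox17* at -3.14 in RT-like cells is the filled point, and *F11r* lies below 0 in all 4 panels.

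By the Pearson correlation of log2(mean CPM + 1) over the 14 classes, among 13310 genes, the patterns most like each member were found. They are descriptions over classes that share their libraries. The nearest to *Cldn11* were *Phactr1* (r = 0.963), *Scx* (0.946) and *Trpm3* (0.927), and to *Cldn3* they were *Ppfibp2* (0.936), *Sp5* (0.919) and *Vwa3a* (0.902). For *Cldn4* they were *Nppb* (0.967), *Mmp24* (0.947) and *Hrk* (0.903), and for *Cldn5* *Mmrn1* (0.996), *8430408G22Rik* (0.994) and *Cyyr1* (0.994). *Cldn4* was near 0 outside the SV, where it had 21 UMIs, and *Cldn5* outside endothelium. The r values of each therefore rest mainly on a single class. *Cldn7* was most like *Atl2* (0.953), *Pcsk1n* (0.941) and *Insig2* (0.937), and *Cgn* like *Lrp8* (0.961), *Ncoa2* (0.959) and *Pcsk1n* (0.958). *Ocln* had *Prr15* (0.940), *Slc35f2* (0.918) and *Gas2l1* (0.918), *Tjp1* had *Rnf14* (0.891), *Arhgap29* (0.885) and *Arl4a* (0.865), and *F11r* had *Tmc6* (0.905), *Adgrg1* (0.904) and *Cdc42bpb* (0.898). Among the members themselves the 36 pairs ran from -0.373 to 0.880 with a median of 0.491, and *Cldn7* and *Cgn* were the closest pair.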

How the data were processed

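Cells of 2 control and 2 *Sox17*-cKO libraries were captured with 10x Genomics 3′ chemistry. The authors deposited UMI counts per gene and barcode, aligned to mm10 with Cell Ranger 6.0.2 for the libraries numbered 1 and 6.1.2 for those numbered 2. Cells with 1000 to 4500 features were kept with no mitochondrial limit, integrated and clustered with Seurat 5.3.0 (2000 variable features, 20 components, resolution 0.4), with the members and other barrier genes left out of the features. Clusters were named from marker lists. A further 3 clusters (1687 cells) stayed unnamed. Scrublet called 0 doublets in both libraries numbered 1, and 208 (control) and 330 (*Sox17*-cKO) in those numbered 2. Its calls could not be used for the libraries with 0, so none were applied, and removal of the top 8% of scores in each library was tried as an alternative. UMIs were summed per class and library and tested with edgeR 4.0.16 (TMM, quasi-likelihood, Benjamini-Hochberg adjustment), class comparisons with the library as a block. The SE of a fold was not estimated by the fit. It was taken as the absolute log2 fold change divided by the square root of the quasi-likelihood F statistic. The script was tested on simulated data, in which the genotype comparisons recovered 7 to 18% of 2-fold and 66 to 83% of 4-fold changes. The members and lists were chosen with earlier results of these data known. All members were reported, and other barrier genes were named by a rule: up to 3 higher and 3 lower per comparison with the smallest adjusted p past the threshold, all libraries agreeing in direction. The other claudins named by level fall outside that rule and were chosen after their values were seen. The 3 most similar genes per member were those of highest Pearson r among genes of at least 10 CPM in a class. Alternatives were DESeq2 1.42.0, another size factor, no filter on low counts, each library left out, cells under 10% mitochondrial UMIs, resolution 0.8, no integration and a replicate block. Counting intervals are exact, and limits for a count of 0 take 3 counts.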

Additional observations from a re-analysis of the deposited data

Results flagged for a closer look

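Among 55 levels of the members of at least 10 CPM, 2 held a library whose gap to the nearest of the other 3 was large against the whole range by Dixon's criterion, which chance alone meets in about 1 in 20 groups. *Tjp1* in undifferentiated spermatogonia-like cells was at 89.7 CPM in control 2, against 162 to 175 CPM in the other libraries. That value rests on 51 UMIs in 48 cells. *F11r* in RT-like cells was at 147.5 CPM in control 1, against 83.1 to 91.8 CPM in the other libraries.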

How the results depend on the processing

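The higher *Cldn3* and lower *Cgn* and *Ocln* of RT-like against tubule Sertoli-like cells, and the higher *Cldn3* and lower *Cgn* and *Cldn11* of RT-like against SV Sertoli-like cells, kept their calls under every alternative run, with folds of 4.75 to 5.58, -3.56 to -2.97, -1.24 to -0.71, 4.02 to 4.89, -3.15 to -2.74 and -0.86 to -0.54. In the main fit *Cldn3* passed the filter on low counts only through its RT-like sums, so its kept calls are no support. The *Ocln* call is against the tubule class as a whole and not against each of its clusters. Without integration no SV cluster formed, so nothing could be computed for it. Of 358 member folds that were not called, 30 changed sign; the cause was not tested. With no filter, 7 members were called between RT and tubule and 3 between SV and tubule, and all genes called were 7038 (RT against tubule), 98 (RT genotype), 2 (SV genotype), 10 (endothelial genotype) and 1 (SV interaction); *Tjp1* and *F11r* between SV and tubule turned to -0.059 and -0.044. That setting moved the median of all genes by -0.342, -0.128 and -0.216 in the 3 class comparisons, and the higher share of calls between RT and tubule went from 52.8 to 33.4%. DESeq2 called 20 genes (RT genotype), 1 (endothelial), 16 (RT interaction) and 0 (SV interaction). Cells under 10% mitochondrial UMIs gave 16 and 1 (RT genotype, SV interaction), tubule levels of 0.0562 CPM (*Cldn5*) and 174 CPM (*Cgn*), and reversed *F11r* between RT and tubule (0.052), *Cgn* between SV and tubule (0.0012), the genotype folds of *Cldn11* (0.088) and *Ocln* (-0.036) in the SV and of *Cldn11* (0.077) and *Ocln* (0.12) in the tubule. Removing the top 8% of doublet scores gave 4 and 1 (RT genotype, SV interaction) and *Tjp1* at 0.014 in the RT. Resolution 0.8 gave 1 (SV interaction) and *Cldn11* at 0.0010 in the SV. No integration gave 4 (RT genotype) and *Cldn4* at 0.641 CPM in the tubule. With the replicate block, 1 member and 224 genes were called in the RT, and *Cldn11* in the SV was 0.012; same-numbered libraries deviated together (r = 0.357, 0.40, 0.573 and 0.147 in RT, SV, tubule and endothelium), but there are 2 pairs and the labels state no pairing. Leaving out 1 library in turn gave 4 to 5 members called between RT and tubule, 0 to 1 between SV and tubule, 3 to 5 between RT and SV, and 5 to 68, 0 to 6, 0 to 6, 2 to 18, 34 to 53 and 1 to 10 genes in the RT, SV, tubule and endothelial genotype comparisons and the RT and SV interactions. Member folds that changed sign in these fits were, between SV and tubule, *Cldn3* (-0.085 to 1.22), *Tjp1* (-0.071 to 0.20) and *F11r* (-0.019 to 0.19), in the RT genotype comparison *Cldn3* (-1.07 to 0.22), *Tjp1* (-0.40 to 0.35) and *Cgn* (-0.14 to 1.01), in that of the SV *Cldn11* (-0.33 to 0.39), *Ocln* (-0.22 to 0.48) and *Tjp1* (-0.39 to 0.81), in that of the tubule *Cldn11* (-0.62 to 0.30), *Cldn3* (-1.85 to 1.25) and *Ocln* (-0.60 to 0.046), and *Cldn11* in the SV interaction (-0.068 to 0.37). A group left with 1 library was assumed to vary like the other.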

Other observations

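Cells in no named class held the members too. Cluster 20, with 17 cells, had 112 CPM of *F11r* and 40.5 CPM of *Cldn3* from 5 UMIs. Cluster 18, with 190 cells, had 92.8 CPM of *Cldn11*, and cluster 5, with 1480 cells, had 48.4 CPM of *Cgn* and 91.0 CPM of *Tjp1*.

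The libraries numbered 2 differed from those numbered 1 in both genotypes. In RT-like cells *Cldn3* was 0.415 times as high in control 2 as in control 1, and 0.557 times in *Sox17*-cKO 2 as in *Sox17*-cKO 1. *Cldn11* was 1.89 and 1.43 times as high in RT-like, 1.53 and 1.31 times in SV Sertoli-like and 1.53 and 1.78 times in tubule Sertoli-like cells. Summed fibroblast markers in SV Sertoli-like cells were 41.8, 274, 73.1 and 452 CPM, and summed germ cell markers in tubule Sertoli-like cells were 375, 137, 473 and 191 CPM. The Cell Ranger version differs with the same numbers, and the 2 cannot be told apart.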
